A study of Mus musculus with 3 samples.

Results

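Across RNA-seq libraries of cultured mouse cortical neurons, 6 genes of the neurotrophin system were followed, namely the ligands Bdnf and Ntf3, the receptor kinases Ntrk2 and Ntrk3, the low-affinity receptor Ngfr and the sorting receptor Sort1. They are 6 of the 54232 genes in the count files, were chosen by name, and all 6 were among the 13884 genes with a level of at least 1 CPM (counts per 1000000 counts of the library) in at least 1 library. The first library, IKVAV PA + PEDOT-S, came from a culture with a peptide amphiphile (PA), a lipid-tailed peptide that assembles into fibres and here displays the laminin-derived sequence IKVAV, and an added component which the title calls PS2 and the library name PEDOT-S_OH. It is taken here to be the conducting polymer PEDOT-S. The second library, IKVAV PA, came from a culture with the peptide amphiphile but without that component, and the third, labelled PDL and not spelled out further, was the control. All 3 came from wildtype CD1 mice, an outbred stock, and the treatment field reads peptide amphiphile for all 3, the control included. The sources used here do not give the age of the animals, the days in culture or the number of animals behind each culture.

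Neurotrophins are secreted as precursors that proteases cut to the mature form. Mature BDNF, the product of Bdnf, binds TrkB (Ntrk2) and mature neurotrophin-3, the product of Ntf3, binds mainly TrkC (Ntrk3), and both receptors signal through the ERK, PI3K and PLC-gamma pathways. The uncut precursors bind the p75 receptor (Ngfr) together with sortilin (Sort1). In the cortex Bdnf transcription rises with neuronal activity and calcium entry, and its protein acts on dendrites and synapses.

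Each group had 1 library, all labelled repeat 3, with total counts of 79057998 for IKVAV PA + PEDOT-S, 124425958 for IKVAV PA and 78993105 for PDL. No test between groups was possible and every difference below is one between single cultures with no replicate check. The intervals are exact 95% counting intervals. They cover counting error only and not the spread between cultures. A gene was counted as higher or lower when its whole interval lay past a 1.5-fold difference. By that rule 3.96% of all 13884 genes differed between IKVAV PA and PDL, 4.21% between IKVAV PA + PEDOT-S and PDL, and 2.35% between the 2 scaffolds. The culture was neuronal by its markers. The 8 neuronal markers, led by Map2, Tubb3 and Stmn2, summed to 7590, 7795 and 7505 CPM in IKVAV PA + PEDOT-S, IKVAV PA and PDL, and microglial markers to at most 2.71 CPM. In bulk libraries, fewer cells of a type and less RNA per cell cannot be told apart.

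Bdnf was the only member past the bound in any comparison, and only in IKVAV PA against PDL. Its level was 38.1 CPM in the IKVAV PA + PEDOT-S library, 26.9 CPM in the IKVAV PA library and 46.7 CPM in the PDL library, from 2985, 3347 and 3716 counts. The IKVAV PA library was thus the lowest, the PDL library the highest, and the counting intervals of the 3 levels did not overlap. Ratio intervals that excluded 0, as those of Bdnf did in each comparison, were found for 57.0% to 59.9% of all genes. Bdnf was 1.74-fold lower in IKVAV PA than in PDL (log2 ratio -0.80, interval -0.86 to -0.73). Of all genes tested, 3.63% had a lower ratio in that comparison, and 3.42% were counted as lower. In IKVAV PA + PEDOT-S the log2 ratio to PDL was -0.29 (interval -0.36 to -0.22), a level 81.7% of that in PDL and within the 1.5-fold bound. Between the scaffolds the Bdnf level was 1.42 times as high with PEDOT-S as without it (log2 ratio 0.51, interval 0.43 to 0.58). The whole of that interval lay within the 1.5-fold bound, and 1.59% of all genes had a higher ratio.

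**Figure D1:**
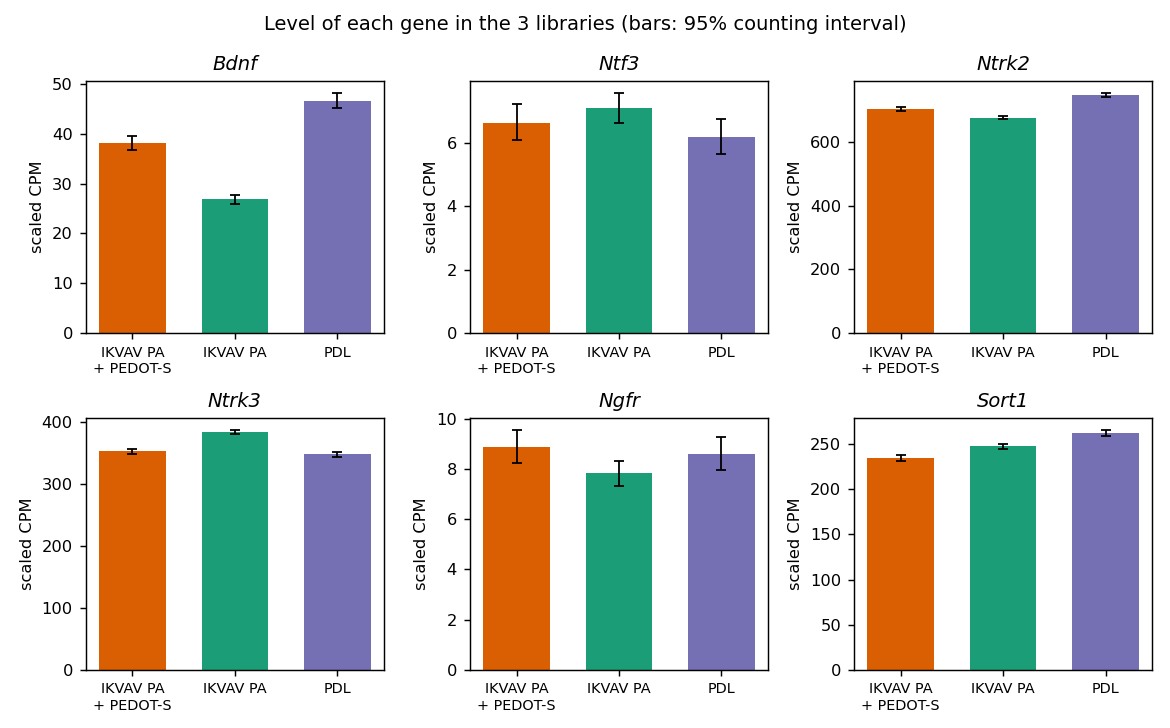
Level of each of the 6 genes in the 3 libraries in CPM scaled with TMM factors, with exact 95% counting intervals as error bars and each axis starting at 0. Bdnf stood at 38.1, 26.9 and 46.7 CPM in IKVAV PA + PEDOT-S, IKVAV PA and PDL, whereas the bars of the other 5 genes lie close together.

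The Bdnf gene (ENSMUSG00000048482) spans chr2:109674700-109727007 on the plus strand (GRCm38). Its transcripts start at several alternative first exons and share the last, coding exon, and the counts are per gene, so they cannot say which start was in use. Of its exonic bases 14.4% are shared with Gm45346, a gene model on the opposite strand, which held 4, 13 and 0 counts in IKVAV PA + PEDOT-S, IKVAV PA and PDL. The strand setting of the counting is not known, so reads in the shared part could be lost from either gene.

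Promoter sequence is shown for Bdnf because the start at its first exon numbered IV is the best known activity-dependent start of the gene, read in rodents through CREB and other factors. The RefSeq table (GRCm38.p6) held windows from 250 bases before to 50 bases after a start for 4 of the 6 genes, 11 windows in all and 7 of them Bdnf. The half-site of the CREB element, TGACG or CGTCA on either strand, was in 1 of the 11 windows, and 20.8% of all 32851 windows of that length held it. That window lies at chr2:109692186-109692485 on the plus strand, and the capitals mark the half-site, whose first base is 35 bases before the start.
Bdnf, exon IV start: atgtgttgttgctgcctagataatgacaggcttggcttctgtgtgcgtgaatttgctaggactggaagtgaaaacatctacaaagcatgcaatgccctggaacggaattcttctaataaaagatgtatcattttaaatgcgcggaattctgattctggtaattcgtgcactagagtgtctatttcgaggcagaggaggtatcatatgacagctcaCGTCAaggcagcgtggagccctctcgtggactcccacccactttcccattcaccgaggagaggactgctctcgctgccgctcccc
The other 6 Bdnf windows and the windows of Ntf3, Ntrk2 and Ngfr had no match to these letters.

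Ntf3 (ENSMUSG00000049107, chr6:126101412-126166910, minus strand), which encodes neurotrophin-3, was weakly expressed and lay close together in all 3 libraries. It stood at 6.64 CPM in IKVAV PA + PEDOT-S, 7.09 CPM in IKVAV PA and 6.18 CPM in PDL, from 520, 884 and 492 counts. Here the IKVAV PA library was the highest and the PDL library the lowest, the reverse of the order for Bdnf, but the counting intervals of the 3 levels overlapped. The log2 ratio to PDL was 0.20 for IKVAV PA (interval 0.04 to 0.36) and 0.11 for IKVAV PA + PEDOT-S (interval -0.08 to 0.29). Between the scaffolds it was -0.09 (interval -0.25 to 0.06). At this depth a difference between IKVAV PA + PEDOT-S and either other library was not detectable. Per kilobase of exon, the level of Bdnf was 1.58 times that of Ntf3 in IKVAV PA + PEDOT-S, 1.04 times in IKVAV PA and 2.08 times in PDL.

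Ntrk2 (ENSMUSG00000055254, chr13:58806569-59133970, plus strand), the gene of the BDNF receptor TrkB, was the most abundant of the 6 genes and differed little between libraries. Its level was 705 CPM in IKVAV PA + PEDOT-S, 678 CPM in IKVAV PA and 749 CPM in PDL. The IKVAV PA library was again lowest and the PDL library highest, as for Bdnf, over a much narrower range. The log2 ratio to PDL was -0.14 for IKVAV PA (interval -0.16 to -0.13) and -0.09 for IKVAV PA + PEDOT-S (interval -0.10 to -0.07), and between the scaffolds it was 0.06. With 55170 to 84499 counts per library the counting error was small, so none of these intervals included 0, which also held for 57.0% of all genes in IKVAV PA against PDL, 57.1% in the comparison of IKVAV PA + PEDOT-S with PDL, and 59.9% between the scaffolds. Ntrk2 also makes truncated receptors without the kinase, which are typical of astrocytes, and the gene counts add these to the full-length form.

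Ntrk3 (ENSMUSG00000059146, chr7:78175959-78738012, minus strand), the gene of the neurotrophin-3 receptor TrkC, was highest in the IKVAV PA library. It stood at 353 CPM in IKVAV PA + PEDOT-S, 385 CPM in IKVAV PA and 349 CPM in PDL, and the intervals of IKVAV PA + PEDOT-S and PDL overlapped. The log2 ratio of IKVAV PA to PDL was 0.14 (interval 0.12 to 0.16), and that of IKVAV PA + PEDOT-S to IKVAV PA was -0.12 (interval -0.14 to -0.10). Between IKVAV PA + PEDOT-S and PDL it was 0.02 (interval -0.00487 to 0.04), and its sign turned with total counts in place of scaling factors. Per kilobase of exon, Ntrk2 had 3.12, 2.76 and 3.36 times the level of Ntrk3 in IKVAV PA + PEDOT-S, IKVAV PA and PDL.

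Ngfr (ENSMUSG00000000120, chr11:95568818-95587735, minus strand), the gene of the p75 receptor, was near the level of Ntf3. It stood at 8.88 CPM in IKVAV PA + PEDOT-S, 7.82 CPM in IKVAV PA and 8.60 CPM in PDL, from 695, 975 and 685 counts. The counting intervals of these levels all overlapped. The log2 ratio to PDL was -0.14 for IKVAV PA (interval -0.28 to 0.01) and 0.05 for IKVAV PA + PEDOT-S (interval -0.11 to 0.20), and between the scaffolds it was 0.18 (interval 0.04 to 0.32). Of the 8 markers of Schwann and neural crest cells, which carry much p75, Foxd3 was at 0 in every library, and the summed level was 20.0, 14.0 and 10.3 CPM in IKVAV PA + PEDOT-S, IKVAV PA and PDL. Only 2 of the 8 passed the filter, and in each scaffold 1 of these had a positive and 1 a negative log2 ratio to PDL, so the sum does not describe both. Their part in the Ngfr values was not tested.

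Sort1 (ENSMUSG00000068747, chr3:108284082-108361511, plus strand), the gene of sortilin, which binds proneurotrophins and also carries BDNF into secretory vesicles, was lowest in the IKVAV PA + PEDOT-S library. Its level was 235 CPM there, 248 CPM in IKVAV PA and 262.5 CPM in PDL, and these 3 counting intervals did not overlap. At 18399 to 30872 counts per library the counting error was small. The Sort1 ratio interval excluded 0 in each comparison, as did those of 57.0% to 59.9% of all genes. The log2 ratio to PDL was -0.08 for IKVAV PA (interval -0.11 to -0.06) and -0.16 for IKVAV PA + PEDOT-S (interval -0.19 to -0.13), and between the scaffolds it was -0.08. Of its exonic bases 4.47% are shared with Gm12523 on the opposite strand, which held 1, 1 and 5 counts in IKVAV PA + PEDOT-S, IKVAV PA and PDL.

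**Figure D2:**
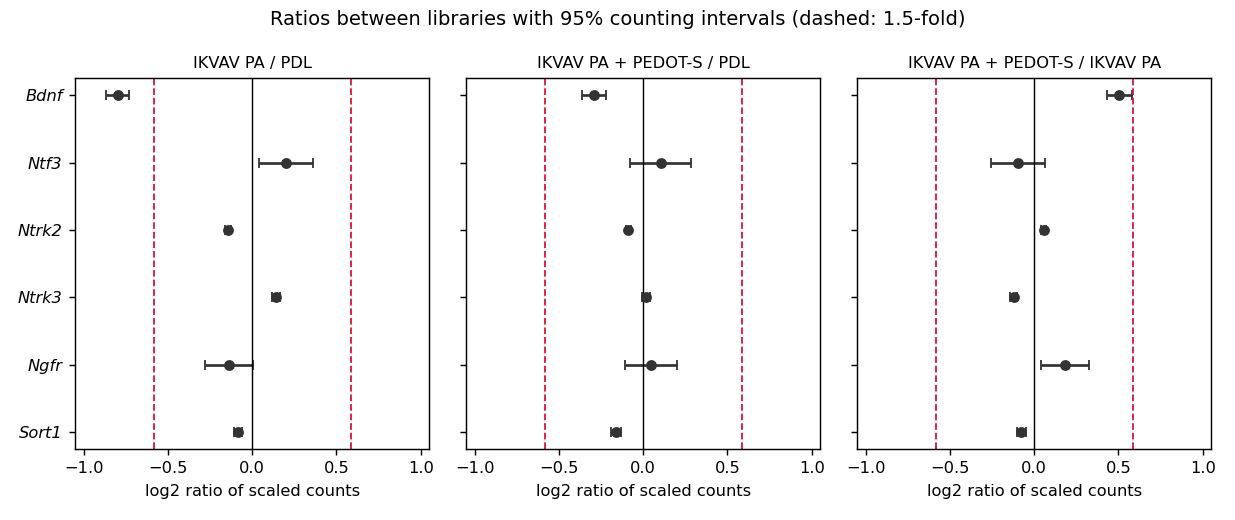
Log2 ratios of scaled counts for the 6 genes in each comparison, with exact 95% counting intervals and dashed lines at 1.5-fold. Only the Bdnf interval in IKVAV PA against PDL (-0.86 to -0.73) lies beyond a dashed line.

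Of the 6 genes, 1 was counted as lower and none as higher in IKVAV PA against PDL, where 3.42% of all genes were lower and 0.54% higher. None was counted in IKVAV PA + PEDOT-S against PDL, where 3.76% of all genes were lower and 0.447% higher. None was counted between the scaffolds either, where 2.02% of all genes were lower and 0.331% higher with PEDOT-S. The median log2 ratio of the 6 genes was -0.11 in IKVAV PA against PDL and -0.03 in IKVAV PA + PEDOT-S against PDL, with -0.01 between the scaffolds. The medians over all genes tested were 0.000202, -0.00249 and 0.00705 in the same order. The other 5 members lay within a log2 ratio of 0.2 in each comparison, as did 72.5%, 69.6% and 70.7% of all genes. The order of levels per kilobase of merged exons was Ntrk2, Sort1, Ntrk3, Bdnf, Ntf3 and Ngfr in all 3 libraries. In the IKVAV PA library the levels per kilobase were 35.1, 32.7, 12.8, 4.32, 4.14 and 2.27 CPM in that order, so that Bdnf and Ntf3 were close neighbours there, against 7.50 CPM for Bdnf and 3.60 CPM for Ntf3 in PDL. The order was the same with the longest coding transcript as the length, though Ntrk2 then stood further above Sort1, at 77.5 against 36.2 CPM per kilobase in IKVAV PA.

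**Figure D3:**
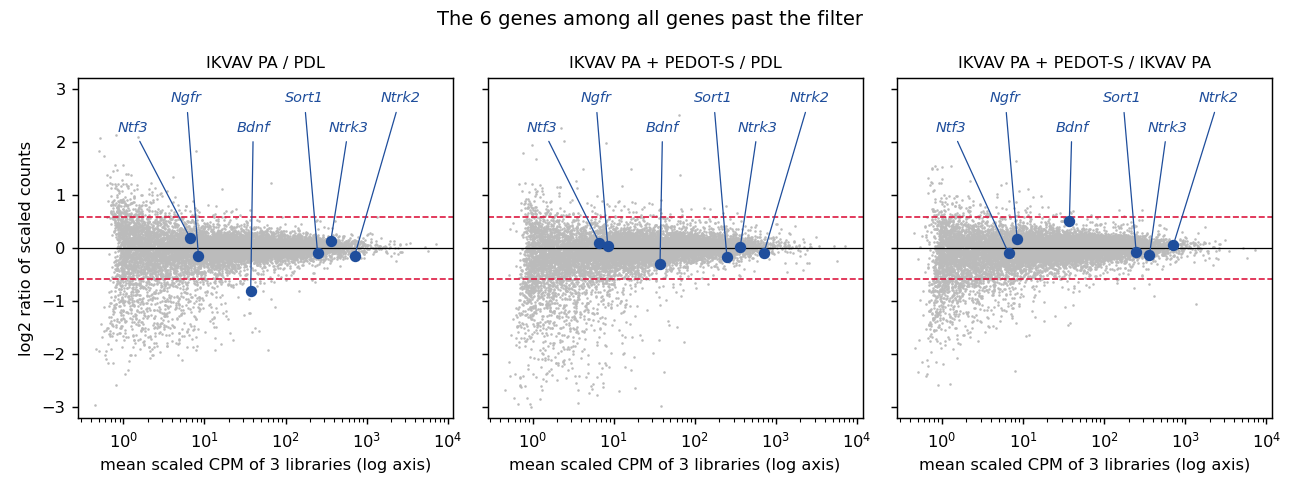
Log2 ratio of scaled counts in each comparison against the mean level in the 3 libraries (log axis) for the 13884 genes tested (grey) and the 6 genes (blue), with dashed lines at 1.5-fold. Bdnf lies at -0.80, -0.29 and 0.51, the other 5 genes stay near 0, and 7 genes of the middle plot lie outside its range.

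Genes of the machinery that carries neurotrophin signals showed few differences. The lists were chosen with earlier results of these data known, and their counts are a description. Of 31 Trk adaptors and kinases, all of which passed the expression filter, none was counted in IKVAV PA against PDL or between the scaffolds. Shc1, an adaptor of receptor kinases, was lower in IKVAV PA + PEDOT-S than in PDL (2.61 against 4.80 CPM, log2 ratio -0.88, interval -1.13 to -0.63). Sh2b2, another adaptor, stood at 44.2 CPM in IKVAV PA + PEDOT-S, 42.2 CPM in IKVAV PA and 35.3 CPM in PDL, within the bound, as did Gab1, a docking protein, at 12.6, 11.5 and 14.4 CPM. The list medians were 0.02 for IKVAV PA to PDL, 0.04 for IKVAV PA + PEDOT-S to PDL and 0.03 between the scaffolds.

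None of the 19 partners and effectors of p75 was counted in any comparison, where 2.35% to 4.21% of all genes were. The list medians were -0.03 for IKVAV PA to PDL, -0.02 for IKVAV PA + PEDOT-S to PDL and 0.04 between the scaffolds. Rtn4r, a Nogo receptor that works with p75, stood at 42.2 CPM in IKVAV PA + PEDOT-S, 45.3 CPM in IKVAV PA and 35.0 CPM in PDL, a log2 ratio to PDL of 0.27 for IKVAV PA + PEDOT-S and 0.37 for IKVAV PA, both within the bound. Ripk2, a kinase that binds p75, had a log2 ratio of -0.71 between IKVAV PA + PEDOT-S and IKVAV PA (2.53 against 4.14 CPM), with an interval that reached into the bound. Among the other neurotrophins and receptors 5 of 8 passed the filter and none was counted, with medians of -0.21, -0.22 and -0.04 in the same order. Ntf5, a further Trk ligand, did not pass it, at no more than 11 counts per library. Sorcs2 and Sorcs3, which are related to sortilin, had log2 ratios of -0.40 and -0.42 in IKVAV PA + PEDOT-S against PDL.

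Among 14 genes of proneurotrophin processing 10 passed the filter, and the list medians were -0.10, -0.01 and 0.00324 in the same order. In each comparison 1 of the 10 was counted as lower and none as higher, where 3.42%, 3.76% and 2.02% of all genes were lower. Plat, the gene of the protease tPA, which acts on plasminogen and so on proBDNF, was at 20.2, 20.9 and 28.8 CPM in IKVAV PA + PEDOT-S, IKVAV PA and PDL, within the bound. Pcsk1, a prohormone convertase of regulated secretory vesicles, was at 28.1, 21.2 and 33.4 CPM in the same libraries, with a log2 ratio of -0.65 in IKVAV PA against PDL (interval -0.73 to -0.57) that ended just inside the bound. Furin, which cuts proneurotrophins in the secretory pathway, was at 41.3, 41.1 and 39.97 CPM.

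None of the 20 measured regulators of Bdnf transcription was counted in any comparison, where 2.35% to 4.21% of all genes were. The list medians were 0.02 for IKVAV PA to PDL, 0.00493 for IKVAV PA + PEDOT-S to PDL and -0.03 between the scaffolds. Creb1, which encodes the activity-regulated factor CREB, was at 106 CPM in IKVAV PA + PEDOT-S, 100.4 CPM in IKVAV PA and 99.9 CPM in PDL. Usf2, which binds E-boxes, was at 35.0, 31.8 and 27.5 CPM and Srf, the serum response factor, at 72.4, 65.5 and 58.7 CPM, each highest in IKVAV PA + PEDOT-S and within the bound. Npas4, an activity-induced factor that binds Bdnf promoters, stood lowest in IKVAV PA, at 55.3, 42.8 and 60.2 CPM, with a log2 ratio to PDL of -0.49 (interval -0.55 to -0.44) within the bound. Camk2a, a calcium-dependent kinase, was lowest in IKVAV PA + PEDOT-S instead, at 133, 184 and 189 CPM, with log2 ratios of -0.50 to PDL and -0.46 to IKVAV PA.

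Of 20 genes that Trk signalling or activity induces, 4 were lower in IKVAV PA than in PDL and none higher, where 3.42% of all genes were lower. All 20 had a negative log2 ratio, with a median of -0.46, where the median over all genes tested was 0.000202. The 4 were Nptx2, a synaptic pentraxin (-0.89, interval -0.996 to -0.78), Btg2, an antiproliferative factor (-0.93, interval -1.07 to -0.79), Spry4, an inhibitor of receptor kinase signalling (-0.69, interval -0.78 to -0.60), and Scg2, a secretogranin of dense-core vesicles (-0.63, interval -0.65 to -0.60). Vgf, a secreted peptide precursor that BDNF induces, stood at 242, 172 and 237 CPM in IKVAV PA + PEDOT-S, IKVAV PA and PDL. In IKVAV PA + PEDOT-S against PDL none of the 20 was counted and the median was -0.03, with 9 positive and 11 negative ratios. Between the scaffolds 18 of 20 ratios were positive, and the median was 0.35, where that over all genes tested was 0.00705. Nptx2 alone was counted as higher there (20.2 CPM with PEDOT-S against 10.2 CPM without), as were 0.331% of all genes. These comparisons share libraries and are not independent of each other, and the lower activity-related genes were already known from earlier results of these data.

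**Figure D4:**
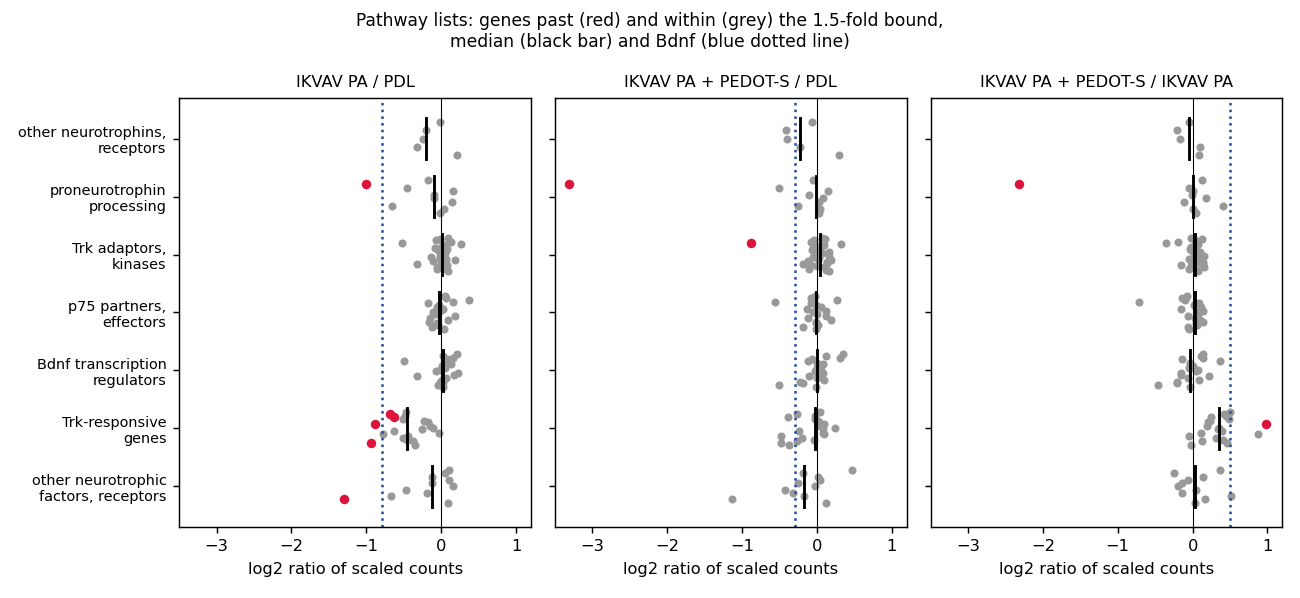
Log2 ratios of scaled counts for the measured genes of 7 pathway lists in each comparison, with genes past the 1.5-fold bound in red, list medians as black bars and Bdnf as a dotted line. The Trk-responsive genes have medians of -0.46, -0.03 and 0.35, while the medians of the adaptor, p75 and regulator lists stay within 0.04 of 0.

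Promoter windows of these responsive genes are shown beside that of Bdnf to set out the letters around the CREB element. RefSeq windows were at hand for 13 of the 20 genes, 18 windows in all, and 10 of the 13 had the half-site in at least 1 window. Of all 27025 genes with a window, 23.05% did, and the shares are not like for like where a gene has several windows. The list was made of genes that Trk signalling or activity induces, and CREB is activity-regulated. Its share therefore depends on how the list was chosen and is no result of these data. The full palindrome TGACGTCA, which contains the half-site on both strands, was in the windows of 2 of the 13 genes, Scg2 and Btg2. It was also in that of Pcsk1, which is not on the list and was looked up after its value was seen. It was in 1.79% of all windows and in at least 1 window of 2.03% of genes. For Nptx2 and Spry4, the other genes counted as lower, no window was read, and the match was not compared with the calls. The stretches of 60 bases below begin 94, 192 and 104 bases before the start of Scg2, Btg2 and Pcsk1, with matches in capitals, and lie at chr1:79440061-79440120 (minus strand), chr1:134079288-134079347 (minus strand) and chr13:75089753-75089812 (plus strand).
Scg2: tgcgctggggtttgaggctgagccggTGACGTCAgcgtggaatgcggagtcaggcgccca
Btg2: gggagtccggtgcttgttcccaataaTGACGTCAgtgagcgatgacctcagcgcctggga
Pcsk1: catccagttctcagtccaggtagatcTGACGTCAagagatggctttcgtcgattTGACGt
Such a match describes the letters in the window and does not show that a factor was bound there.

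The genes whose pair of log2 ratios against PDL lay nearest to that of Bdnf over the 3 libraries were Tmem176b, Pdlim1, Sox9, Pimreg and Spry4, at distances of 0.0566 to 0.110 on the log2 scale among 9074 protein-coding candidates. Sox9, a transcription factor of glia and progenitors, stood at 12.3 CPM in IKVAV PA + PEDOT-S, 9.52 CPM in IKVAV PA and 15.8 CPM in PDL. For the other 5 members the 3 nearest genes lay within 0.00737 of them. With 3 libraries such a likeness rests on 2 ratios and shares the PDL library.

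Markers of glia, fibroblasts and dividing cells differed between the PDL library and the scaffold libraries. Progenitor and dividing-cell markers summed to 224, 205 and 418 CPM in IKVAV PA + PEDOT-S, IKVAV PA and PDL, with 6 of 9 measured genes lower in each scaffold than in PDL, and astrocyte markers to 213, 208 and 280 CPM, with 3 of 8 measured genes lower and 1 higher in IKVAV PA + PEDOT-S, and 6 of 8 lower in IKVAV PA, than in PDL. Fibroblast and mural cell markers summed to 27.2 CPM in IKVAV PA + PEDOT-S, 59.3 CPM in IKVAV PA and 144 CPM in PDL, with 7 of 7 measured markers lower in IKVAV PA + PEDOT-S and 4 of 7 in IKVAV PA than in PDL. All 7 were highest in PDL, and the filter needed only 1 library, so it could favour such genes. Of all genes, 3.76% were lower and 0.447% higher in IKVAV PA + PEDOT-S than in PDL, and 3.42% lower and 0.54% higher in IKVAV PA. Excitatory markers summed to 1624, 1567 and 1431 CPM and inhibitory markers to 902, 843 and 931 CPM in IKVAV PA + PEDOT-S, IKVAV PA and PDL, with none of either list past the bound. Oligodendrocyte lineage markers summed to 103, 80.1 and 109 CPM, but single genes moved both ways: of 10, 4 were higher and 4 lower in IKVAV PA + PEDOT-S than in PDL, with log2 ratios from -2.67 to 2.27, and 2 were higher and 4 lower in IKVAV PA than in PDL. Between the scaffolds 3 of the 10 were higher and 2 lower with PEDOT-S, where 0.331% of all genes were higher and 2.02% lower. The astrocyte gene Gjb6 was at 0 in every library. Most of the summed astrocyte level came from Slc1a2, a glutamate transporter, at 153, 161 and 169 CPM in IKVAV PA + PEDOT-S, IKVAV PA and PDL. Between the scaffolds 6 of the 8 measured astrocyte genes had a positive log2 ratio, with a median of 0.41 beside the 0.51 of Bdnf. Of these, Gfap (1.39 against 0.498 CPM) and Aldoc (6.22 against 2.64 CPM) were higher with PEDOT-S by the bound, while Sox9 had a log2 ratio of 0.37 and Slc1a3 one of 0.15. Gfap passed the filter only through the IKVAV PA + PEDOT-S library, the one in which it was highest. The astrocyte median was -1.24 in IKVAV PA against PDL and -0.50 in IKVAV PA + PEDOT-S against PDL. Its sign was that of the Bdnf ratio in all 3 comparisons, but these share libraries and are not independent. The match was not particular to astrocytes. Oligodendrocyte lineage medians had the same signs (-0.29 and -0.21 for IKVAV PA and IKVAV PA + PEDOT-S to PDL, 0.25 between the scaffolds). So did the medians of the Trk-responsive, proneurotrophin processing, p75 and other neurotrophic factor lists. Against PDL 7 of the 8 measured astrocyte genes had a negative log2 ratio in each scaffold. Gfap went the other way, at 0.31 in IKVAV PA and 1.79 in IKVAV PA + PEDOT-S. The median over the 9 measured progenitor and dividing-cell genes was -0.00431 between the scaffolds. Over the 7 measured fibroblast and mural cell genes it was -0.87 there, opposite in sign to the Bdnf ratio. The part of these cell types in the Bdnf values was not tested. With the libraries scaled to the summed neuronal markers in place of all genes, which was chosen once the values were known, the Bdnf ratio of IKVAV PA to PDL was -0.85, that of IKVAV PA + PEDOT-S to PDL -0.31 and that between the scaffolds 0.54.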

How the data were processed

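The authors deposited whole-number read counts per Ensembl gene for 3 libraries, 1 per group. Per the submitters' processing notes HTSeq 2.0.2, STAR 2.7.5, cutadapt 4.2 and DESeq2 1.14.1 were used, on mm10. The sources used here do not say in which order, or with which annotation, strand option or filter. The labels' protocols name a total RNA kit and the molecule field polyA RNA. GENCODE M21 (GRCm38) supplied symbols, coordinates and exon lengths, and matched 54165 of 54232 identifiers.

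Libraries were assigned to groups by the sample titles, which read therapy PA, therapy PA + PS2 and therapy control. The names IKVAV and PDL are not in these titles. Library sizes were scaled with TMM factors (edgeR 4.0.16, R 4.3.3) of 0.990, 1.00 and 1.01 for IKVAV PA + PEDOT-S, IKVAV PA and PDL, and genes with at least 1 CPM in at least 1 library were kept. Ratios of scaled counts have exact (Clopper-Pearson) 95% counting intervals, and levels exact Poisson intervals (SciPy 1.17.1). Without molecular identifiers, reads of PCR copies are not independent, so intervals cover counting error only. The calculation was tested on simulated data. The members and lists were chosen with earlier results of these data known. Genes named are the 6 members, up to 4 genes per pathway list by interval bound, the nearest genes by ratio, leading cell markers, and genes named as background for their role or marker status (Furin, Creb1, Vgf, Ntf5, Foxd3, Gjb6, Gfap, Aldoc and the GDNF family ligands), which were picked after their values were seen. Some genes of the lists that the rule would name are not reported here. The alternatives tried were size factors from DESeq2 1.42.0, totals without factors, TMM over protein-coding genes, other bounds and filters, an assumed variation between cultures and neuronal scaling.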

Additional observations from a re-analysis of the deposited data

How the results depend on the processing

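Over 9 alternatives, 147 of 162 recomputed member ratios kept their direction and stayed counted or not counted, each judged by the bound of its own alternative. Bdnf in IKVAV PA against PDL (log2 ratio -0.80) was no longer counted with a 2-fold bound, nor with an assumed coefficient of variation of 0.2 between cultures, which widened its interval to -1.60 to 0.0059. The number of members counted in that comparison was then 0. Under the other scalings and filters its ratio lay between -0.85 and -0.79 and stayed past the bound. With total counts in place of factors the Ntrk3 ratio of IKVAV PA + PEDOT-S to PDL reversed to -0.00717, within counting error of 0. Where any interval that excludes no difference was counted, with no minimum size, 5, 3 and 5 of the 6 members were counted for IKVAV PA to PDL, IKVAV PA + PEDOT-S to PDL and the scaffolds. These were, beside Bdnf in the first, Ntf3 (0.20), Ntrk2 (-0.14), Ntrk3 (0.14) and Sort1 (-0.0837) there, Bdnf (-0.29), Ntrk2 (-0.0876) and Sort1 (-0.16) in the second, and Bdnf (0.51), Ntrk2 (0.0560), Ntrk3 (-0.12), Ngfr (0.18) and Sort1 (-0.0756) in the third. By that rule 57.0%, 57.1% and 59.9% of all genes were counted, against 1.64%, 1.95% and 0.591% with the 2-fold bound, and 1.17%, 1.64% and 0.396% with the assumed variation. Of 189 recomputed list counts 41 moved by over 1.5 times, most of them under these rules, and the 4 Trk-responsive genes lower in IKVAV PA became 0 under both stricter ones. No paired analysis was possible because each group holds 1 library and the groups share only the repeat number 3. Depth limits Ntf3 and Ngfr, with 492 to 975 counts per library, more than the other members. Without replicates, the spread between cultures is unknown.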

Other observations

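Of 18 other neurotrophic factors and their receptors, 11 passed the expression filter, with median log2 ratios of -0.12 for IKVAV PA to PDL, -0.17 for IKVAV PA + PEDOT-S to PDL and 0.03 between the scaffolds. Fgf2, a growth factor of glia and progenitors, was lower in IKVAV PA than in PDL at the low level of 0.433 against 1.07 CPM (log2 ratio -1.30, interval -1.82 to -0.79), with 13.2% of its exonic bases shared with another gene. It passed the filter only through the PDL library, the one in which it was highest. With a filter of at least 5 CPM in at least 1 library, no gene of this list was counted in that comparison. In IKVAV PA + PEDOT-S, at 0.485 CPM, the log2 ratio of Fgf2 to PDL was -1.14, with an interval that reached into the bound, so it was not counted. Gfra1, a co-receptor for GDNF, stood at 21.5 CPM in IKVAV PA + PEDOT-S, 15.1 CPM in IKVAV PA and 24.1 CPM in PDL, and its ratio of -0.67 in IKVAV PA against PDL ended just inside the bound (-0.77 to -0.58). Vegfa, an angiogenic factor, was at 71.8, 55.9 and 52.0 CPM in the same libraries, a log2 ratio of 0.46 between IKVAV PA + PEDOT-S and PDL within the bound. Igf1, an insulin-like growth factor, was at 24.2, 23.5 and 32.45 CPM. The GDNF family ligands Gdnf, Nrtn, Artn and Pspn did not pass the filter, with 9 to 87 counts per library.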
